A study of Homo sapiens with 4 samples.

Results

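Glypicans and syndecans are the main families of heparan sulfate proteoglycans that sit in the plasma membrane. Humans have 6 glypican genes (GPC1 to GPC6) and 4 syndecan genes (SDC1 to SDC4), and these 10 genes were chosen by symbol, among the 64252 gene rows of the count table. Each symbol had a single row. Of the 10 genes, 8 had enough counts to be tested, while GPC4 and GPC5 were close to undetected in every library.

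The 4 libraries were made from the line SK-N-BE(2), human neuroblastoma cells in which MYCN is amplified. In the shCDK5RAP3 group (2 libraries) the cells had been transfected with a short hairpin RNA against CDK5RAP3, a protein that works with the UFM1 ligase at the endoplasmic reticulum, and in the shControl group (2 libraries) with a control hairpin. The labels do not say whether cells were pooled or cloned, how long after transfection they were taken, how many hairpins were used, or whether replicates were separate cultures. Every p-value below therefore measures only the spread between these libraries, which may be technical.

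A glypican is a globular core protein tied to the outer leaflet of the membrane by a glycosylphosphatidylinositol (GPI) anchor, whereas a syndecan spans the membrane and ends in a short cytoplasmic tail that binds PDZ proteins and the cytoskeleton. Both kinds of core protein carry long heparan sulfate chains, whose sulfate pattern decides which growth factors and morphogens they hold, such as FGFs, midkine, pleiotrophin, Wnts and Hedgehogs. In neural tissue they act as co-receptors in axon growth, synapse formation and growth factor signalling, and in neuroblastoma GPC2 has been pursued as a surface target for immunotherapy.

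Of the 6 glypicans 4 were lower in shCDK5RAP3 cells and 2, GPC4 and GPC5, were not tested, and of the 4 syndecans 3 were lower and SDC2 did not pass the test. GPC3 and GPC6 were lowest relative to control, at 36.4% and 38.3% of their shControl levels. SDC1 and SDC4 stood at 55.8% and 56.5%, and SDC3, GPC2 and GPC1 at 71.6%, 73.0% and 77.3%. SDC2 was at 95.2%. Of the 8 tested genes 7 fell and 0 rose (edgeR quasi-likelihood test, Benjamini-Hochberg adjusted p under 0.05 over all 18775 tested genes), where 21.8% of all tested genes fell and 19.7% rose. The median log2 fold change, shCDK5RAP3 over shControl, was -0.65 over the 8 genes and 0.00 over all tested genes. In all 8, the values of the shCDK5RAP3 libraries in CPM (counts scaled to library size) were below those of the shControl libraries, a pattern seen in 36.4% of all tested genes. In bulk RNA a lower level may be less RNA per cell or fewer cells that make it, and these cannot be told apart.

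**Figure D1:**
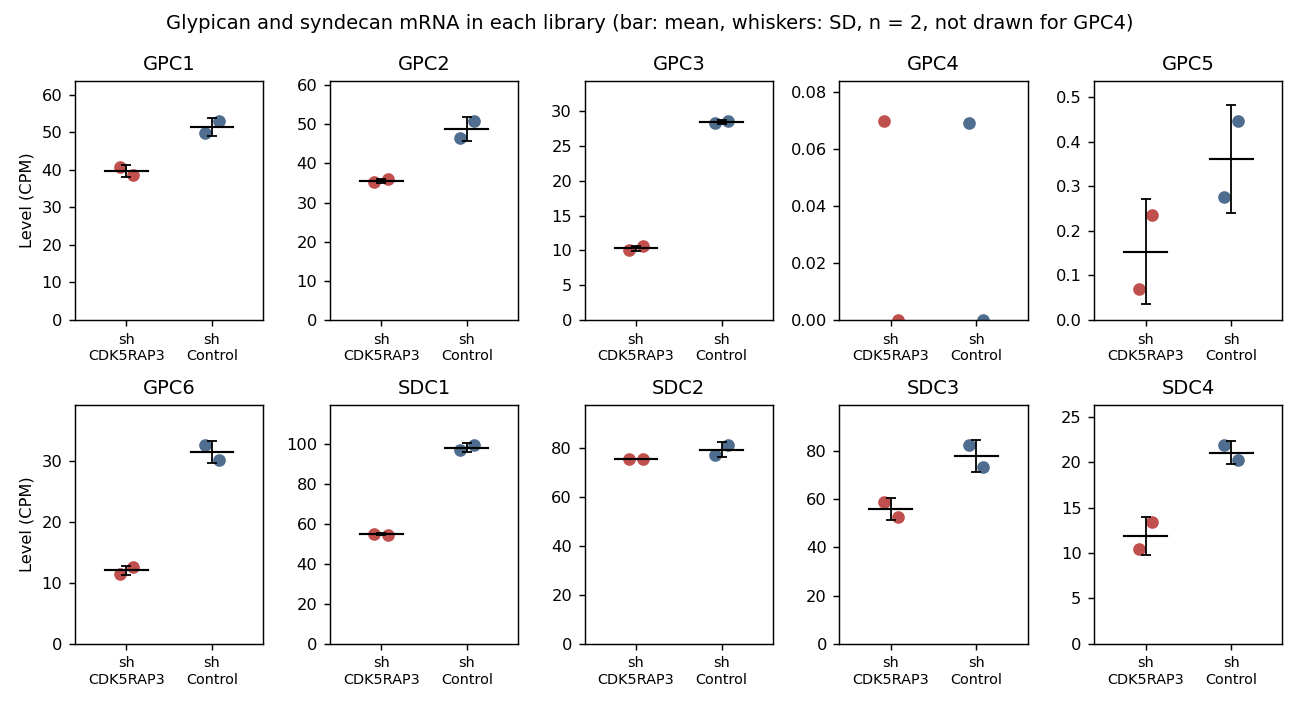
Level of each of the 10 genes in CPM (y axis, linear, from 0) in each library, with shCDK5RAP3 on the left and shControl on the right of each panel. Points are libraries, bars are means and whiskers SDs of 2 libraries, left out for GPC4. In every panel but that of GPC4 both shCDK5RAP3 points lie below both shControl points, and the smallest gap among the tested genes is that of SDC2.

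CDK5RAP3 itself (ENSG00000108465) had 1669 and 1689 counts in shCDK5RAP3 libraries, against 2529 and 2866 in shControl libraries, and was at 62.1% of control (log2 fold change -0.69, SE 0.08, edgeR adjusted p = 0.000163), so the knockdown was partial. Total counts were 28653689 and 30138393 in shCDK5RAP3 libraries and 28721740 and 28755837 in shControl libraries, and a count of 0 allows up to 3 counts, or 0.0995 to 0.105 CPM, counting error only. All 9 neuroblastoma identity markers were detected. Their summed level was 4633 and 4779 CPM in shCDK5RAP3 libraries and 7538 and 8060 CPM in shControl libraries. MYCN made up most of this sum in each library. Of the 9 markers 8 fell, against 21.8% of all tested genes. MYCN averaged 2844 ± 47.9 CPM in shCDK5RAP3 cells and 4792 ± 175 CPM in shControl cells (SD, n = 2 each; log2 fold change -0.75, edgeR adjusted p = 6.74e-06), and shares 98 exon bases with the antisense gene MYCNOS, whose reads in that stretch cannot be told apart. The 7 fibroblast markers summed to 258 and 237 CPM in shCDK5RAP3 libraries and 593 and 563 CPM in shControl libraries. Of these 5 were lower, against the same 21.8% of all tested genes, and none was at 0 in all libraries. Schwann cell markers summed to 1.57 and 2.30 CPM in shCDK5RAP3 libraries against 3.94 and 3.09 CPM in shControl libraries, with SOX10 at 0 in all 4. Epithelial markers summed to 2.34 and 3.41 CPM in shCDK5RAP3 libraries against 6.29 and 6.87 CPM in shControl libraries, with CDH1, KRT5 and KRT14 at 0. Leukocyte and endothelial markers summed to 2.80 and 2.57 CPM in shCDK5RAP3 libraries against 4.11 and 4.23 CPM in shControl libraries, with CD3E at 0. The part of these shifts in the glypican and syndecan values was not tested. The numbers of called genes move with the libraries used: 4088 genes fell and 3704 rose in all, against 2604 and 2232 without shCDK5RAP3 replicate 1 and 2196 and 1556 without shCDK5RAP3 replicate 2.

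GPC3, an oncofetal glypican that restrains Hedgehog signalling and is mutated in Simpson-Golabi-Behmel syndrome, showed the greatest relative fall of the 10 genes. GPC3 (ENSG00000147257, GRCh38 chrX:133535745-133985895, minus strand) had 288 and 314 counts in shCDK5RAP3 libraries, against 819 and 833 in shControl libraries. The replicates lay close together and the groups were far apart. In CPM this was 10.3 ± 0.372 in shCDK5RAP3 cells and 28.5 ± 0.242 in shControl cells (SD, n = 2 each), a log2 fold change of -1.46 with a 95% interval of -1.70 to -1.22 (edgeR adjusted p = 1.72e-05). Leaving out any single library kept the value between -1.50 and -1.42. Its neighbour GPC4 (ENSG00000076716, chrX:133300103-133415490, same strand), a glypican known in rodents as an astrocyte signal for synapse formation, had 2 and 0 counts in shCDK5RAP3 libraries and 2 and 0 in shControl libraries. GPC4 was thus at or under the level of detection in both groups, and no fold change is given.

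Among 12798 genes with a symbol and a mean log2 CPM of at least 1, the closest to GPC3 in pattern over the 4 libraries were RACGAP1, ZNF423 and PKP2. Likeness was the Euclidean distance between log2 CPM values centred over the 4 libraries, and came to 0.0598 for RACGAP1, 0.0640 for ZNF423 and 0.0687 for PKP2. Their log2 fold changes were -1.47, -1.47 and -1.48. With 4 libraries in 2 groups such a distance mostly ranks genes by the size of the difference between the groups.

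GPC6, a glypican that is mutated in the skeletal disorder omodysplasia and promotes Hedgehog signalling in growing bone, fell almost as far as GPC3. GPC6 (ENSG00000183098, chr13:93226842-94407401, plus strand) had 328 and 373 counts in shCDK5RAP3 libraries and 947 and 880 in shControl libraries. The higher shCDK5RAP3 library held less than the lower shControl library by a wide margin. It averaged 12.0 ± 0.792 CPM in shCDK5RAP3 cells and 31.5 ± 1.74 CPM in shControl cells (SD, n = 2 each; log2 fold change -1.39, 95% interval -1.63 to -1.14, edgeR adjusted p = 2.38e-05). An antisense transcript, ENSG00000278177, overlaps 476 bases of GPC6 exons and had 20 and 10 counts in shCDK5RAP3 libraries and 5 and 6 in shControl libraries. Whether the authors counted by strand is not stated, so reads in that stretch cannot be assigned to one or the other.

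GPC5 (ENSG00000179399, chr13:91398607-92873682, plus strand), which lies next to GPC6 and is known to promote Hedgehog signalling in rhabdomyosarcoma, was nearly silent. It had 2 and 7 counts in shCDK5RAP3 libraries and 8 and 13 in shControl libraries, or 0.153 ± 0.118 CPM in shCDK5RAP3 cells and 0.362 ± 0.121 CPM in shControl cells (SD, n = 2 each). The CPM values of the groups did not overlap, but the counts were too few to pass the filter, so no test was made. The glypicans at the X-linked pair and at the pair on chromosome 13 thus each comprised 1 expressed gene, GPC3 or GPC6, and 1 gene at or near 0, GPC4 or GPC5.

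Stretches of the GPC5 and GPC6 3′ untranslated regions are shown because the 7-base word AACACCT had been singled out in earlier results on these same libraries. In the longest annotated 3′ untranslated region of each gene (GENCODE 29), the word occurred in 2 of the 10 glypicans and syndecans, against 1836 of 19133 protein-coding genes, or 9.60%. A second such word, ACACCTA, occurred in 0 of the 10, against 1281 of 19133 genes, or 6.70%. GPC6 has a long region of 4184 bases with 2 matches to AACACCT and GPC5 has 1 match in 798 bases, while the other 8 genes have none. Capitals mark the word, and each site is on the plus strand of GRCh38, 5′ to 3′, at chr13:94404725-94404753, chr13:94405680-94405708 and chr13:92867070-92867098 in the order printed. A match is a description of the letters, and any part of it in the fall of GPC6 was not tested.
GPC6 first site: ctttcatgtaaAACACCTtcggcctagga
GPC6 second site: tcatttgtttcAACACCTtcattatcaat
GPC5 site: agtattttattAACACCTgatttgtattc

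GPC2, the neural glypican studied as an immunotherapy target in neuroblastoma, and GPC1, a widely expressed glypican that binds FGF2, fell less than GPC3 and GPC6. GPC2 (ENSG00000213420, chr7:100169606-100177372, minus strand) had 1004 and 1065 counts in shCDK5RAP3 libraries and 1348 and 1480 in shControl libraries. Its mean was 35.5 ± 0.591 CPM in shCDK5RAP3 cells and 48.7 ± 3.05 CPM in shControl cells (SD, n = 2 each; log2 fold change -0.45, 95% interval -0.64 to -0.26, edgeR adjusted p = 0.00244). GPC1 (ENSG00000063660, chr2:240435671-240468078, plus strand) had 1166 and 1144 counts in shCDK5RAP3 libraries and 1441 and 1543 in shControl libraries. That is 39.7 ± 1.53 CPM in shCDK5RAP3 cells and 51.4 ± 2.31 CPM in shControl cells (SD, n = 2 each; log2 fold change -0.37, 95% interval -0.56 to -0.19, edgeR adjusted p = 0.00561). For both genes the groups did not overlap, yet the intervals lie above those of GPC3 and GPC6 without touching them. The call of GPC1 was lost without shCDK5RAP3 replicate 2 (log2 fold change -0.34, edgeR adjusted p = 0.0860).

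**Figure D2:**
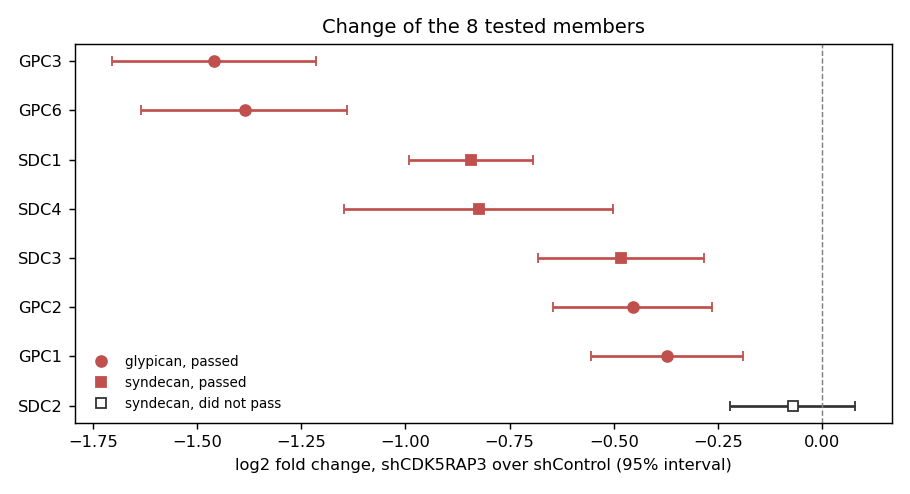
Log2 fold change, shCDK5RAP3 over shControl (x axis), of the 8 tested genes with 95% intervals from the edgeR fit, ordered by size. Circles are glypicans, squares syndecans, and filled symbols passed an adjusted p of 0.05. GPC3 and GPC6 lie near -1.4, and the interval of SDC2, from -0.22 to 0.08, is the only one that includes 0.

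SDC1, best known as the syndecan of epithelia and plasma cells (CD138), was the most abundant of the 10 transcripts per length in shControl cells and lost the most counts. SDC1 (ENSG00000115884, chr2:20200797-20225433, minus strand) had 1577 and 1615 counts in shCDK5RAP3 libraries and 2805 and 2905 in shControl libraries. The libraries of a group differed by little beside the distance between groups. It averaged 54.9 ± 0.453 CPM in shCDK5RAP3 cells and 98.4 ± 2.10 CPM in shControl cells (SD, n = 2 each; log2 fold change -0.84, 95% interval -0.99 to -0.69, edgeR adjusted p = 2.26e-05).

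SDC4, a syndecan of focal adhesions whose tail activates protein kinase C alpha, was a scarcer transcript with a fall of like size. SDC4 (ENSG00000124145, chr20:45325288-45348424, minus strand) had 298 and 396 counts in shCDK5RAP3 libraries and 636 and 588 in shControl libraries. It averaged 11.9 ± 2.08 CPM in shCDK5RAP3 cells and 21.1 ± 1.24 CPM in shControl cells (SD, n = 2 each; log2 fold change -0.82, 95% interval -1.15 to -0.50, edgeR adjusted p = 0.00168). The shCDK5RAP3 libraries of SDC4 were the furthest apart of the 8 genes relative to their mean, and the log2 fold change came to -0.65 with shCDK5RAP3 replicate 1 left out and to -1.02 with replicate 2 left out. Without a filter on low counts its call was lost (edgeR adjusted p = 0.0501).

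SDC3, the neural syndecan that serves as a receptor for pleiotrophin in axon growth, fell more mildly. SDC3 (ENSG00000162512, chr1:30869467-30908761, minus strand) had 1689 and 1559 counts in shCDK5RAP3 libraries and 2397 and 2134 in shControl libraries. In CPM, 55.9 ± 4.56 in shCDK5RAP3 cells stood against 78.1 ± 6.68 in shControl cells (SD, n = 2 each; log2 fold change -0.48, 95% interval -0.68 to -0.28, edgeR adjusted p = 0.00219). The groups did not overlap, but both varied. The call was lost without shCDK5RAP3 replicate 2 (log2 fold change -0.41, edgeR adjusted p = 0.0703) and without a filter on low counts (-0.49, edgeR adjusted p = 0.0527).

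SDC2, a syndecan of mesenchymal cells that in rodent neurons promotes the maturation of dendritic spines, did not pass the test. SDC2 (ENSG00000169439, plus strand) had 2152 and 2233 counts in shCDK5RAP3 libraries and 2230 and 2365 in shControl libraries. The levels were 75.3 and 75.4 CPM in shCDK5RAP3 libraries and 77.0 and 81.3 CPM in shControl libraries, which do not overlap but come within a few percent of each other. The log2 fold change was -0.07 with a 95% interval of -0.22 to 0.08 (edgeR adjusted p = 0.430), so that the data allow anything from 85.8% to 105.7% of the control level. Over all alternatives tried the value lay between -0.11 and -0.03. Its interval does not touch that of SDC1, SDC3 or SDC4, a comparison of intervals and not a test between genes.

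Summed over each family, glypican transcripts summed to 97.6 and 98.0 CPM in shCDK5RAP3 libraries, against 157.6 and 163.2 CPM in shControl libraries, so the summed level was at 61.0% of control. Syndecan transcripts summed to 198 ± 2.86 CPM in shCDK5RAP3 libraries and to 276.6 ± 2.81 CPM in shControl libraries (SD, n = 2 each), or 71.6% of control. For both sums the groups did not overlap, and an exact permutation test of 2 against 2 libraries cannot go below p = 0.333 (two-sided).

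The unequal falls changed the make-up of each family. SDC2 held 37.7% (95% Wilson interval 36.4% to 38.9%) and 38.5% (37.2% to 39.7%) of syndecan counts in shCDK5RAP3 libraries, against 27.6% (26.7% to 28.6%) and 29.6% (28.6% to 30.6%) in shControl libraries. It was thus the leading syndecan by counts in shCDK5RAP3 libraries, and SDC1 in shControl libraries. The share of SDC1 was 27.6% and 27.8% in shCDK5RAP3 libraries and 34.8% and 36.4% in shControl libraries. The share of SDC3 overlapped between groups, at 29.6% and 26.9% in shCDK5RAP3 libraries and 29.7% and 26.7% in shControl libraries. Among glypicans, GPC1 and GPC2 together came to the larger part in both groups, and their shares were higher in shCDK5RAP3 libraries. GPC1 held 41.8% and 39.4% of glypican counts in shCDK5RAP3 libraries and 31.6% and 32.5% in shControl libraries. GPC2 held 36.0% and 36.7% in shCDK5RAP3 libraries and 29.5% and 31.2% in shControl libraries. GPC3 made up 10.3% and 10.8% of glypican counts in shCDK5RAP3 libraries and 17.9% and 17.5% in shControl libraries, and GPC6 11.8% and 12.9% in shCDK5RAP3 libraries and 20.7% and 18.5% in shControl libraries. Wilson intervals cover counting error only.

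**Figure D3:**
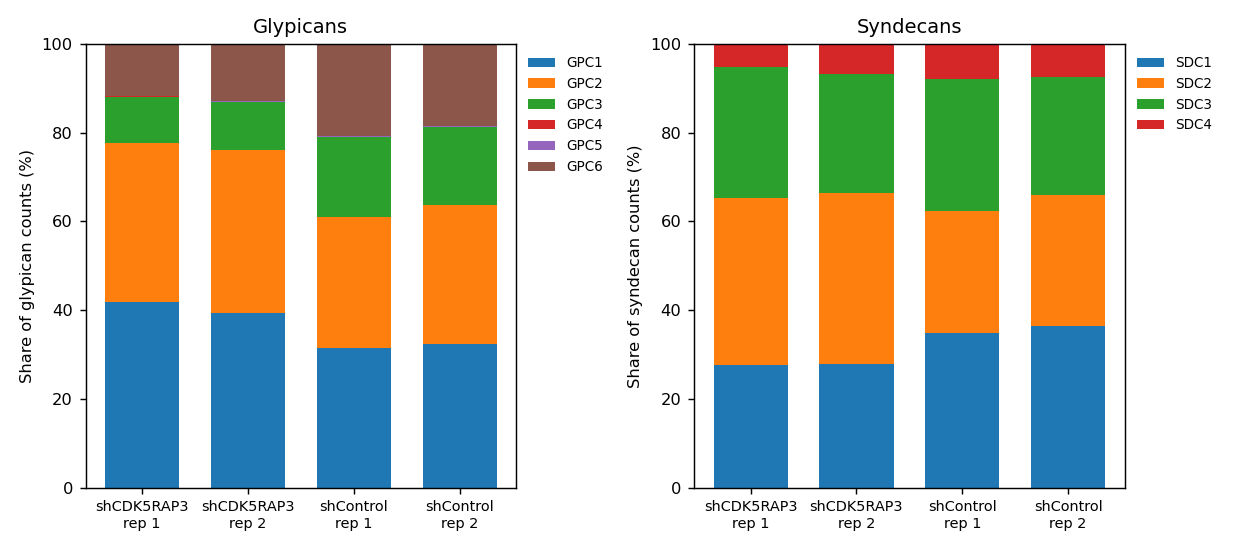
Share of each gene in the counts of its family (y axis, percent) in each library, with both shCDK5RAP3 libraries left of both shControl libraries. In the glypican panel GPC3 and GPC6 take smaller shares in shCDK5RAP3 libraries, and in the syndecan panel SDC2 takes 37.7% and 38.5% in shCDK5RAP3 libraries against 27.6% and 29.6% in shControl libraries.

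Levels of different genes were compared per length, as RPKM, the CPM divided by the length of the merged exons in kilobases. In shCDK5RAP3 cells the order was SDC2 (16.6 RPKM), SDC1 (15.3), GPC2 (9.29), SDC3 (7.91), GPC1 (6.10), SDC4 (4.55), GPC3 (3.81), GPC6 (1.86), GPC5 (0.0432) and GPC4 (0.00705), and the libraries of neighbours in this order did not overlap. For GPC5 and GPC4 this rests on gene length alone. The lower GPC5 library and the higher GPC4 library both had 2 counts. In shControl cells the order was SDC1 (27.4 RPKM), SDC2 (17.5), GPC2 (12.7), SDC3 (11.1), GPC3 (10.5), SDC4 (8.07), GPC1 (7.89), GPC6 (4.87), GPC5 (0.102) and GPC4 (0.00696). There, SDC3 and GPC3 overlapped, and so did SDC4 and GPC1. The first places of SDC2 and SDC1 were exchanged between groups. GPC3 stood below SDC4 and GPC1 in shCDK5RAP3 cells but above both in shControl cells. With the length of the longest coding transcript in place of merged exons, chosen after seeing the data, GPC1 ranked above SDC3 in both groups (10.7 against 8.74 RPKM in shCDK5RAP3 cells, 13.8 against 12.2 in shControl cells). On that scale GPC3 was below GPC1 in both groups (4.03 RPKM in shCDK5RAP3 cells, 11.1 RPKM in shControl cells), and GPC3 and SDC4 (4.55 RPKM) overlapped in shCDK5RAP3 cells. By the same length SDC2 led in shCDK5RAP3 cells (20.0 RPKM) and SDC1 in shControl cells (29.9 RPKM).

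**Figure D4:**
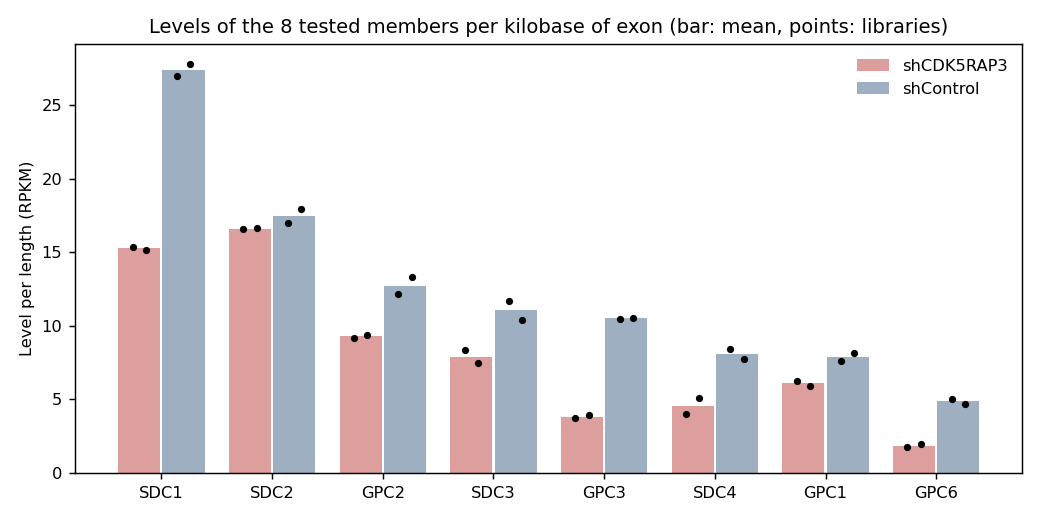
Level per length (y axis, RPKM by merged exons, linear, from 0) of the 8 tested genes, ordered by their shControl mean. For each gene the bar on the left is the shCDK5RAP3 mean and the bar on the right the shControl mean, with points for the 2 libraries of each. SDC1 reaches 27.4 RPKM in shControl cells and 15.3 RPKM in shCDK5RAP3 cells, whereas the SDC2 bars differ little.

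Sequences before the transcription start are given for 3 genes that span the range of falls: GPC6, at 38.3% of control, SDC4, at 56.5%, and GPC1, at 77.3%. They are the 250 bases before the RefSeq start (GRCh38.p14), 5′ to 3′ on the strand of the gene, and capitals mark GGGCGG or its reverse complement CCGCCC, the GC box, with longer runs of capitals where matches overlap or adjoin. GPC6 is at chr13:93226557-93226806 (plus), SDC4 at chr20:45348425-45348674 (minus) and GPC1 at chr2:240435413-240435662 (plus). GPC6 has a GC content of 37.6% and 0 GC boxes, SDC4 73.6% and 8, and GPC1 84.0% and 4. Of 35116 such windows, 42.6% held at least 1 GC box on either strand, and the median GC content was 58.0%. Among the windows used for these families, that of GPC6 was the only one without a GC box. The others held from 1 (each SDC1 window) to 8 (SDC4), and any relation to the falls was not tested. The E-box CACGTG, which the MYC family can bind, was in none of the 9 windows used for these families (GPC1, GPC2, GPC4, GPC5, GPC6, SDC3, SDC4 and a pair for SDC1), against 6.35% of all windows. TATAAA was in the GPC5 and GPC6 windows, with 1 match each, against 10.7% of all windows. CCAAT was in that of GPC2 alone, with 2 matches, against 11240 of all windows. These are letters in a window, not binding sites.
GPC6: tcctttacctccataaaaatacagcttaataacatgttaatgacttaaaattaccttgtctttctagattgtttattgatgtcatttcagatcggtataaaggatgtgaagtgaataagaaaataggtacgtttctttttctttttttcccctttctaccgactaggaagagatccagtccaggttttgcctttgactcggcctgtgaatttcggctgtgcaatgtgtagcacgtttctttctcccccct
SDC4: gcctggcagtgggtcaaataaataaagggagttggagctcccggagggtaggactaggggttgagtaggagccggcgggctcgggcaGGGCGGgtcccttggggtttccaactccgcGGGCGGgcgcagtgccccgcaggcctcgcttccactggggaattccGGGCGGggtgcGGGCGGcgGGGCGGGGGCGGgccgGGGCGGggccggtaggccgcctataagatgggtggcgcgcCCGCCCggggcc
GPC1: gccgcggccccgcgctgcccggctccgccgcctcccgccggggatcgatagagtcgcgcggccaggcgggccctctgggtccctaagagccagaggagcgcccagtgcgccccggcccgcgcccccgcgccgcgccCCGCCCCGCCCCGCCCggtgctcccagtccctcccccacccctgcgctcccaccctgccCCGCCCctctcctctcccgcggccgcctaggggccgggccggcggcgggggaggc

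Heparan sulfate is built on core proteins in the Golgi from a linker of sugars, lengthened, sulfated, edited outside the cell and broken down in lysosomes. In 11 lists for these steps, their substrates and the partners of the core proteins, 99 of 111 genes were tested, of which 35 fell, 18 rose and 46 did not pass. That is 35.4% lower and 18.2% higher, against 21.8% and 19.7% of all tested genes, and the median log2 fold change was -0.15. The same shares of all tested genes are the background for the counts of each list below. Both counts depended on the libraries, with 23 lower and 10 higher without shCDK5RAP3 replicate 1, and 22 lower and 6 higher without shCDK5RAP3 replicate 2.

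Genes for chain building mostly fell, but not all. Of 5 polymerisation genes 4 fell and 1 rose (median -0.74). EXT2, the partner of EXT1 in the heparan sulfate polymerase, had 1074 and 1150 counts in shCDK5RAP3 libraries and 1873 and 1833 in shControl libraries (log2 fold change -0.74, SE 0.07, edgeR adjusted p = 8.68e-05). EXT1 went the other way, with 2018 and 1898 counts in shCDK5RAP3 libraries and 1221 and 1306 in shControl libraries (log2 fold change 0.63, SE 0.08, edgeR adjusted p = 0.00033). In both genes the groups were well apart. EXTL3, which starts the chain, averaged 113 ± 0.628 CPM in shCDK5RAP3 cells and 221 ± 16.5 CPM in shControl cells (SD, n = 2 each; log2 fold change -0.97, edgeR adjusted p = 1.62e-05). EXTL1 was rare, with 8 and 5 counts in shCDK5RAP3 libraries and 39 and 40 in shControl libraries (log2 fold change -2.58, SE 0.46, edgeR adjusted p = 0.00201).

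In the linker list 3 of 7 genes fell and 0 rose (median -0.21). B3GAT3, which adds the last sugar of the linker, averaged 48.4 ± 2.26 CPM in shCDK5RAP3 cells and 79.1 ± 3.57 CPM in shControl cells (SD, n = 2 each; log2 fold change -0.71, edgeR adjusted p = 0.000106). XYLT1, which attaches the first sugar to the core protein, changed by -0.87, and the xylose kinase FAM20B by -0.32 on the log2 scale. The call of XYLT1 was lost without shCDK5RAP3 replicate 1 (-0.67, edgeR adjusted p = 0.0810), and that of FAM20B without shCDK5RAP3 replicate 1 (-0.31, 0.0682) or shCDK5RAP3 replicate 2 (-0.32, 0.0761).

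Among sulfation and epimerisation genes 11 of 16 were tested, of which 5 fell, 3 rose and 3 did not pass (median -0.25). The 3-O-sulfotransferase HS3ST2 averaged 3.17 ± 0.322 CPM in shCDK5RAP3 cells and 8.20 ± 0.808 CPM in shControl cells (SD, n = 2 each; log2 fold change -1.37, edgeR adjusted p = 0.000507). GLCE, the epimerase that turns glucuronic into iduronic acid, averaged 24.8 ± 1.42 CPM in shCDK5RAP3 cells and 37.8 ± 1.89 CPM in shControl cells (SD, n = 2 each; log2 fold change -0.61, edgeR adjusted p = 0.000919). Other members of the 3-O-sulfotransferase family were higher: HS3ST5 by 0.76 and HS3ST3B1 by 0.73 on the log2 scale. The call of HS3ST5 was lost without shCDK5RAP3 replicate 2 (0.58, edgeR adjusted p = 0.108). That of HS3ST3B1, whose close copy HS3ST3A1 may share reads, was lost whichever library was left out, with edgeR adjusted p from 0.0768 to 0.132. NDST1, an N-sulfotransferase, averaged 153 CPM in both groups (log2 fold change 0.00, edgeR adjusted p = 0.993).

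Of the 8 genes that supply sulfate donor and sugar nucleotides, 2 rose, 1 fell and 5 did not pass (median 0.16). The donor synthases moved in opposite directions. PAPSS1 had 5112 and 5376 counts in shCDK5RAP3 libraries and 6873 and 7323 in shControl libraries (log2 fold change -0.44, edgeR adjusted p = 0.000553). PAPSS2 had 283 and 326 counts in shCDK5RAP3 libraries and 173 and 135 in shControl libraries (log2 fold change 0.98, edgeR adjusted p = 0.00257). SLC35D1, a carrier of sugar nucleotides, rose by 0.63 on the log2 scale. Without shCDK5RAP3 replicate 2 the calls of PAPSS2 (0.90, edgeR adjusted p = 0.0589) and SLC35D1 (0.66, 0.0512) were lost.

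SULF2, which removes 6-O-sulfates from chains outside the cell, rose, with 1796 counts in each shCDK5RAP3 library and 1282 and 1147 in shControl libraries (log2 fold change 0.56, SE 0.08, edgeR adjusted p = 0.000718). It was the 1 gene of 3 tested in its list to pass, and the median of the list was -0.63. SULF1 (log2 fold change -1.06, edgeR adjusted p = 0.0933) and HPSE (-0.63, 0.315) had few counts and did not pass. In the lysosomal list 6 of 8 fell and 1 rose (median -0.66). NAGLU, which removes terminal N-acetylglucosamine residues from heparan sulfate, averaged 17.6 ± 0.191 CPM in shCDK5RAP3 cells and 40.6 ± 0.834 CPM in shControl cells (SD, n = 2 each; log2 fold change -1.21, edgeR adjusted p = 1.96e-05). ARSG, a sulfatase, fell by 0.98 and IDUA, the iduronidase, by 1.93 on the log2 scale. ARSG shares 828 exon bases with WIPI1 on the other strand and 318 with ENSG00000267009 on its own strand. WIPI1 had 68 and 45 counts in shCDK5RAP3 libraries and 177 and 170 in shControl libraries. IDUA shares 534 exon bases with SLC26A1 on the other strand. IDUA had 7 and 6 counts in shCDK5RAP3 libraries and 26 and 24 in shControl libraries, and its call was lost whichever library was left out (edgeR adjusted p from 0.0591 to 0.0878).

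**Figure D5:**
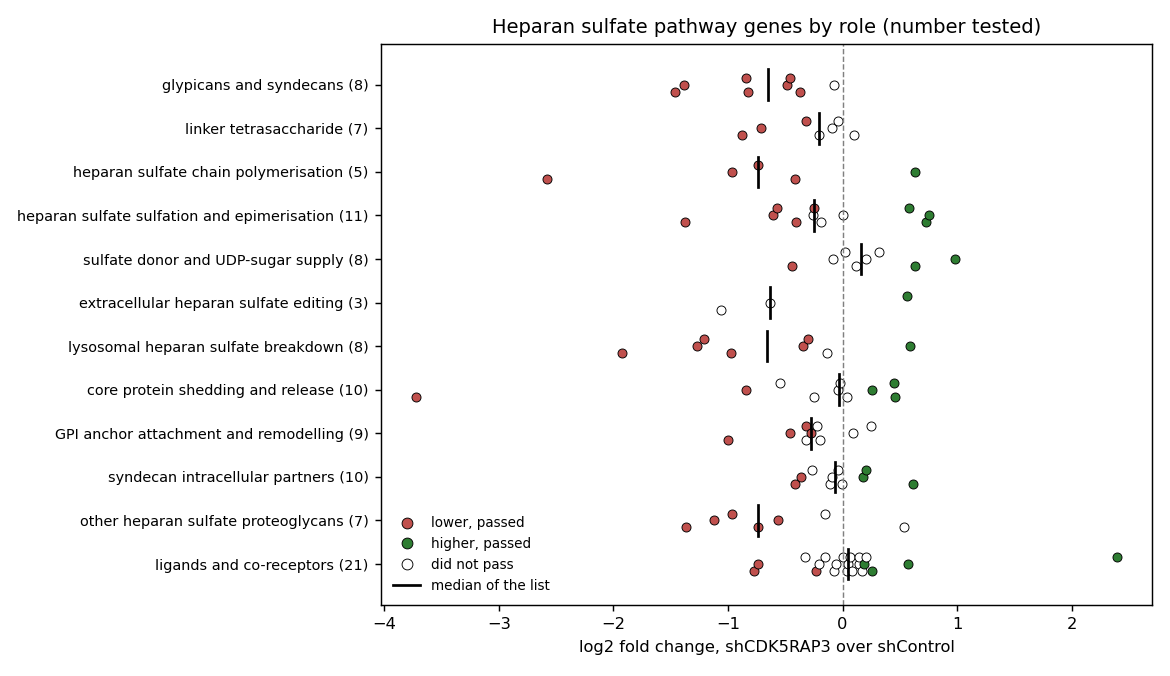
Log2 fold change, shCDK5RAP3 over shControl (x axis), of every tested gene among the glypicans and syndecans and in the 11 pathway lists (rows, number tested in brackets). Points are genes, red and lower or green and higher where the edgeR adjusted p was under 0.05, open where not, and the black bar is the median of a list. The medians of the polymerisation list and of the other proteoglycans lie near -0.74, and that of the ligands near 0.05.

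Genes listed for shedding and release of core proteins changed in both directions. Of 10 tested, 2 were lower, 3 were higher and 5 did not pass (median -0.03). These 20% lower and 30% higher stand beside 21.8% and 19.7% of all tested genes. The list also holds proprotein convertases, of which PCSK7 was higher and FURIN and PCSK6 did not pass. The gelatinase MMP2 had 1509 and 1615 counts in shCDK5RAP3 libraries and 21004 and 20076 in shControl libraries (log2 fold change -3.72, SE 0.07, edgeR adjusted p = 2.2e-08). ADAM17, which sheds syndecan ectodomains, was higher by 0.46 on the log2 scale (edgeR adjusted p = 0.0021, and 0.0540 without a filter on low counts) and the proprotein convertase PCSK7 by 0.45 (0.00218). ADAM17 shares 1323 exon bases with IAH1 on the other strand, and PCSK7 446 with TAGLN, which had 1205 and 1300 counts in shCDK5RAP3 libraries and 280 and 291 in shControl libraries. GDPD5, which cleaves GPI anchors, fell by 0.84 (edgeR adjusted p = 0.00397), a call lost without shCDK5RAP3 replicate 2 (-0.80, 0.0552). Of 9 genes for attachment and remodelling of the GPI anchor, on which glypicans depend, 4 fell and 0 rose (median -0.28). All 4 encode subunits of the enzyme that attaches the anchor. GPAA1 and the remodelling genes PGAP1, PGAP2, PGAP3 and MPPE1 did not pass. PIGS, a subunit of the transamidase that attaches the anchor, averaged 22.2 ± 1.94 CPM in shCDK5RAP3 cells and 44.5 ± 1.06 CPM in shControl cells (SD, n = 2 each; 49.9% of control, edgeR adjusted p = 6.56e-05). Its partner subunits PIGK (-0.46), PIGT (-0.32) and PIGU (-0.28) fell less. None of these 3 calls held without shCDK5RAP3 replicate 1, where edgeR adjusted p were 0.0726, 0.0921 and 0.134. The same was true without shCDK5RAP3 replicate 2 (0.0892, 0.0598 and 0.179), and for PIGU without shControl replicate 1 (0.135).

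Intracellular partners of syndecans, not all of which bind the tail directly, had 2 lower, 3 higher and 5 not passing of 10 tested (median -0.07). That is 20% lower and 30% higher, beside 21.8% and 19.7% of all tested genes. GIPC1 (synectin), which binds the tail of syndecan-4, was higher by 0.61, and TIAM1, an exchange factor for RAC1, by 0.21 on the log2 scale. FYN, a kinase found with syndecan-3, was lower by 0.41 (edgeR adjusted p = 0.000755), and PRKCA, the kinase activated by syndecan-4, by 0.36. Syntenin, SDCBP, the PDZ protein of all syndecans, averaged 107.9 ± 2.08 CPM in shCDK5RAP3 cells and 108.1 ± 4.77 CPM in shControl cells (SD, n = 2 each; log2 fold change 0.00, edgeR adjusted p = 0.981). The calls of GIPC1 (0.51, edgeR adjusted p = 0.0518), TIAM1 (0.24, 0.146) and PRKCA (-0.32, 0.161) were lost without shCDK5RAP3 replicate 2. TIAM1 (0.18, edgeR adjusted p = 0.25) and PRKCA (-0.39, 0.0758) also lost them without shCDK5RAP3 replicate 1, and TIAM1 without shControl replicate 2 (0.15, 0.174).

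Other heparan sulfate proteoglycans were mostly lower too, with 5 of 7 tested genes lower and 0 higher (median -0.74). Agrin (AGRN), of the neuromuscular synapse, had 268 and 274 counts in shCDK5RAP3 libraries and 684 and 707 in shControl libraries (log2 fold change -1.36, edgeR adjusted p = 3.23e-05). The hyaluronan receptor CD44, which carries heparan sulfate in some splice forms, had 1933 and 2090 counts in shCDK5RAP3 libraries and 4407 and 4307 in shControl libraries (log2 fold change -1.12, edgeR adjusted p = 4.64e-06). Perlecan (HSPG2), of basement membranes, fell by 0.96 and SPOCK2, a testican, by 0.74 on the log2 scale. Of the 7 tested genes 6 had both shCDK5RAP3 libraries below both shControl libraries, against 36.4% of all tested genes, and 1 had them above.

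Among ligands and co-receptors 3 were lower, 4 were higher and 14 did not pass of 21 tested (median 0.05). That is 14.3% lower and 19.05% higher, near the 21.8% and 19.7% of all tested genes. The heparin-binding cytokines of neural tissue did not pass. MDK averaged 279.5 ± 28.8 CPM in shCDK5RAP3 cells and 242.4 ± 11.6 CPM in shControl cells (SD, n = 2 each; log2 fold change 0.21, edgeR adjusted p = 0.0673). PTN averaged 189.2 ± 7.70 CPM in shCDK5RAP3 cells and 197.0 ± 9.06 CPM in shControl cells (SD, n = 2 each; log2 fold change -0.06, edgeR adjusted p = 0.518). FGFR3, an FGF receptor, had 70 and 47 counts in shCDK5RAP3 libraries and 10 and 12 in shControl libraries (log2 fold change 2.40, SE 0.40, edgeR adjusted p = 0.00139). The integrin chain ITGAV, a partner of SDC1, had 1544 and 1607 counts in shCDK5RAP3 libraries and 2696 and 2553 in shControl libraries (log2 fold change -0.74, edgeR adjusted p = 5.47e-05). GPR158, a binding partner of GPC4 at mouse synapses, fell by 0.77, a call lost without shCDK5RAP3 replicate 2 (-0.58, edgeR adjusted p = 0.103). HBEGF, a heparin-binding growth factor, rose by 0.57, a call lost whichever library was left out (edgeR adjusted p from 0.0938 to 0.154).

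Pathway genes above that did not pass, such as NDST1, SDCBP, MDK and PTN, were named after their values were seen. So were the other 14 genes that passed in these lists, which complete the counts above. Of these, 3 kept their calls whichever library was left out. They were HS2ST1, the 2-O-sulfotransferase (log2 fold change -0.57), SPOCK1, a testican (-0.57), and IDS, the lysosomal iduronate sulfatase (0.59), which shares exons with a read-through transcript. The other 11 lost theirs in at least 1 such fit, with no change of sign. Lower among them were EXTL2 (-0.41), HS6ST3 (-0.41), SGSH (-0.34), GUSB (-0.30), HS6ST1 (-0.25) and FGFR1 (-0.23), and higher were HS3ST3A1 (0.58), PTCH1 (0.26), ADAM10 (0.25), LRP5 (0.18) and CTTN (0.18). Without a filter on low counts, the calls of XYLT1, HS3ST5, HS3ST3B1, ADAM17, PIGU, GIPC1, PRKCA, TIAM1, GPR158 and HBEGF were lost (edgeR adjusted p from 0.0538 to 0.145). DESeq2 did not call HS3ST3B1, IDUA, PIGU, TIAM1 or HBEGF (adjusted p from 0.0920 to 0.218). By library size alone HS3ST3B1 (edgeR adjusted p = 0.0502) and TIAM1 (0.0782) lost their calls, and with upper-quartile factors PIGU (0.0553) did.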

How the data were processed

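Gene expression was measured by RNA sequencing of total RNA (TRIzol extraction, TruSeq library kit), per the labels' protocols. The authors deposited unscaled counts, whole numbers for each Ensembl gene, in 1 table. HISAT2 2.2.0, StringTie and hg38 are named, without roles, per the submitters' processing notes. No source used here gives the annotation release, whether strand was used, or how multi-mapping reads were handled. Where reads were shared between overlapping or near-identical genes, the values are uncertain for both. All 4 count columns were matched to samples through the labels, and 0 columns were left unused.

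Of 64252 identifiers 56591 matched a symbol in GENCODE 29 (GRCh38) or a table of gene names. The rest stayed in library sizes and tests. The main fit used R 4.3.3 and edgeR 4.0.16 with TMM factors, the default filter by group, and the quasi-likelihood test with Benjamini-Hochberg adjustment over 18775 genes and a threshold of 0.05. CPM and RPKM use TMM-scaled library sizes. The common biological coefficient of variation came to 0.0959. Wilson intervals are at 95% and cover counting error only.

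Alternatives were RLE, upper-quartile and library-size scaling, no filter, a stricter filter (CPM of at least 1 in 2 libraries), limma-trend (limma 3.58.1), DESeq2 1.42.0, edgeR with robust estimation, summed rows of a symbol, a replicate block, and leaving out each library. Where 1 library of a group was left, it is assumed to vary like the other group. RPKM by longest coding transcript was added after seeing the data.

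The 10 genes, the pathway and marker lists and the 7-base words were chosen with earlier results of these data known. Named genes are CDK5RAP3, the 10 genes, MYCN, up to 4 called genes of each pathway list with the largest change, and the 3 genes nearest to the called member with the largest change. Some genes picked by this rule or held in the lists are not reported here. On simulated counts for 18775 genes in this comparison, 47 of 50 genes at a log2 change of -1 were called and 50 of 50 at 1. Calls were made for 12 of 50 at -0.5, 22 of 50 at 0.5, and 3 of 18172 unchanged genes. Far fewer genes were changed there than in the real data, where 4088 fell and 3704 rose, and the adjustment depends on that number. These shares therefore do not give the chance of a call in the real data, where LRP5 and CTTN passed at 0.18. Promoter sequences are from RefSeq (GRCh38.p14) and 3′ untranslated regions from GENCODE 29 transcripts. Windows were matched by symbol. No window of GPC3 or SDC2 is among those used.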

Additional observations from a re-analysis of the deposited data

How the results depend on the processing

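Among the tested glypicans and syndecans, CDK5RAP3, MYCN and the pathway genes named by rule, no direction was reversed under any alternative run. Other genes, such as NDST1, SDCBP, MDK and PTN, were not followed through all alternatives. With all rows above 0 kept, 2522 genes fell and 1966 rose in place of 4088 and 3704, and the pathway lists had 8 rises in place of 18. With 1 library left out at a time, genes that fell numbered 2196 to 3813 and genes that rose 1556 to 3516, and the pathway lists had 22 to 36 falls and 6 to 18 rises. Of the glypicans and syndecans 7 fell under every alternative except no filter and without shCDK5RAP3 replicate 2, where 5 did, and 0 rose under any. The main fit did not pair libraries by replicate number, because the labels do not say that equal numbers share a culture. Over all tested genes the deviations of same-numbered libraries correlated at 0.0534. With only 2 pairs and many genes at low counts, this value cannot tell whether the libraries were paired. With the replicate number as a block, 4718 genes fell and 4430 rose, 7 of the glypicans and syndecans fell and 0 rose, and the pathway lists had 40 falls and 22 rises. Depth limits GPC4 and GPC5, whose levels lie near the floor of 3 counts.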

Other observations

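Among the 111 genes of the pathway lists, 12 had too few counts to be tested. LRRTM4, a synaptic partner of glypicans in rodents, had 0 and 0 counts in shCDK5RAP3 libraries and 9 and 9 in shControl libraries. The N-sulfotransferase NDST3 had 4 and 8 counts in shCDK5RAP3 libraries and 0 and 2 in shControl libraries, and the testican SPOCK3 had 8 and 12 in shCDK5RAP3 libraries and 4 and 5 in shControl libraries. The 3-O-sulfotransferases HS3ST4 and HS3ST6 were at 0 in all 4 libraries, and serglycin (SRGN), a proteoglycan of blood cells, had 1 count in all. These genes were named after their values were seen.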
